A study of Rattus norvegicus with 26 samples.

Results

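The vasoactive and angiogenic signals examined here were 10 genes, Vegfa, Edn1, Adm, Hif1a, Kdr, Flt1, Ednra, Ednrb, Angpt1 and Nos3, taken by their symbols from the 17910 gene IDs of the deposited table, and all 10 were among the 15595 genes tested. Their expression was measured by poly(A) RNA sequencing in the dentate gyrus (DG), the granule cell region of the hippocampus, of 26 male F344 rats aged 6 months at the start of treatment, with RNA from 1 hemisphere and 1 library per rat. By the paper's account, all animals were tested in water maze and inhibitory avoidance tasks after treatment. The Dox group (n = 8) received doxorubicin, an anthracycline chemotherapy drug, at 2 mg/kg by injection in each of 4 weeks. The Dox + ABT group (n = 8) received the same Dox course plus ABT-263 (navitoclax), a senolytic drug directed at BCL-2 and its relatives, given by gavage at 12 mg/kg on 5 consecutive days in alternate weeks. The Veh group (n = 10) received vehicle by gavage and belonged to a separate, ongoing experiment on brain aging, so study of origin and drug treatment cannot be told apart in any comparison with Veh. The granule cell markers Prox1 and C1ql2 were present in every library, at 1680 or more and 3980 or more normalised counts. Estimated depth ran from 10166100 to 24327800 reads per library. Endothelial markers, which were called in both directions, and red-cell markers are given further below. Of the remaining marker lists, those that passed p < 0.01 in Dox against Veh were Vtn of 9 mural, Gfap, Aqp4 and Aldh1l1 of 7 astrocyte, 3 of 6 microglia, Cnp among the oligodendrocyte and Lum of 5 meningeal markers, all lower, and Npas4 and Arc of 10 immediate early genes, also lower, with none of 6 granule cell, 5 CA field and 3 choroid plexus markers. In these remaining lists, Notch3, Aldh1l1, C1ql2 and Csf1r were lower in Dox + ABT against Veh, and in Dox + ABT against Dox, Aqp4, Lum and Npas4 were higher. Of these calls, Arc was lost in 13 of 26 single omissions, Cnp in 8 and Lum, in Dox + ABT against Dox, in 11. Without Dox rats 1 and 2, limma lost the calls against Veh of Arc (-0.37, p = 0.131), Cnp (-0.32, p = 0.0375), Lum (-0.77, p = 0.0102) and the microglia marker Aif1 (-0.39, p = 0.0328). Lum in Dox + ABT against Dox was lost too (0.64, p = 0.0369). With limma's library weights, Arc, Cnp, Aqp4 (-0.29, p = 0.0175) and Npas4 (-0.71, p = 0.0412) were lost against Veh, as was Npas4 in Dox + ABT against Dox (0.78, p = 0.0254).

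Vegfa encodes the growth factor VEGF-A, which acts on endothelial cells through the receptors encoded by Kdr (VEGFR2, the main signalling receptor) and Flt1 (VEGFR1, which binds VEGF-A tightly and limits what reaches VEGFR2). Edn1 encodes endothelin-1, a constrictor of vessels whose receptors come from Ednra, found mainly on vascular smooth muscle, and Ednrb, found on endothelium and astrocytes, while Adm encodes the dilator peptide adrenomedullin. Angpt1 encodes the vessel-stabilising ligand of the receptor Tie2, Nos3 encodes the endothelial nitric oxide synthase, and Hif1a encodes the oxygen-regulated subunit of HIF-1, a factor known to act on Vegfa, Edn1, Adm and Flt1. HIF-1 is controlled mostly at the level of its protein, which RNA does not measure.

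Compared with Veh, the Dox group had higher expression of 3 ligand genes, Vegfa (1.65-fold), Edn1 (2.16-fold) and Adm (2.16-fold), and of the receptor gene Kdr (1.75-fold). These 4 of 10 genes passed p < 0.01 in limma, where 2.87% of all genes tested passed in either direction and 1.02% passed as higher. None of the 10 passed an adjusted p of 0.05, a level that 3 genes of the whole table reached. In Dox + ABT against Veh, 2 of the 10 passed, Vegfa and Edn1, both higher, beside a background of 7.84% in either direction and 3.89% higher. In Dox + ABT against Dox, 1 of the 10 passed, Adm, which was lower (0.38-fold), beside a background of 4.03% in either direction and 2.32% lower. Folds are on the scale of log2(normalised count + 1), and the comparisons share groups of rats, so they are given side by side only. The DG was measured as bulk tissue, so fewer cells of a type and less RNA per cell cannot be told apart.

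**Figure D1:**
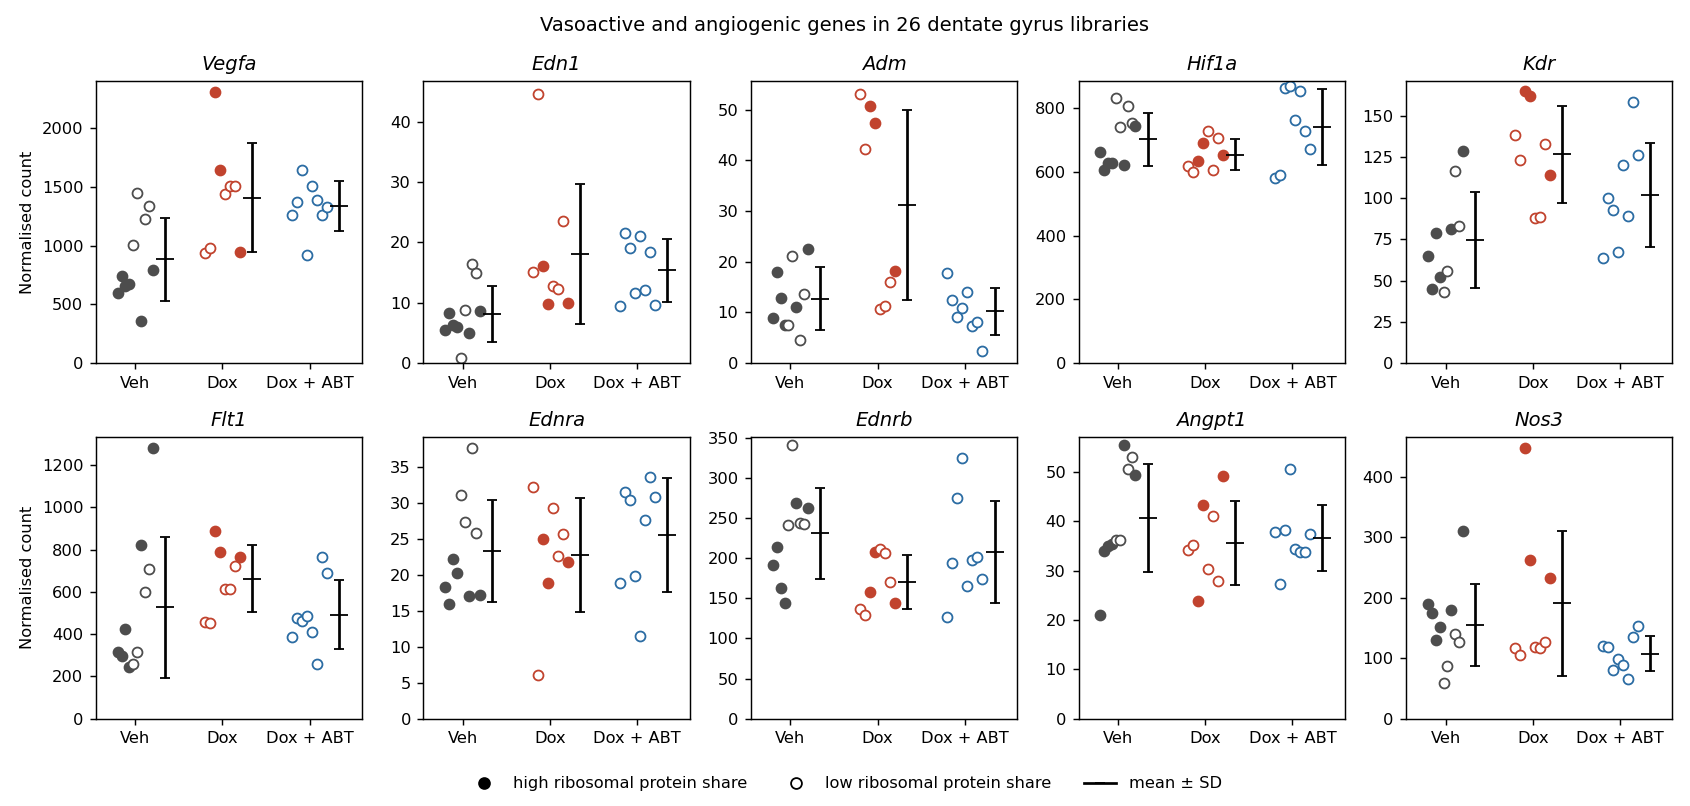
Normalised counts (y axis, from 0) of the 10 genes in the 26 libraries by group (x axis). Filled points are the 9 libraries of high ribosomal protein share, open points the 17 of low share, and bars are the group mean ± SD. Vegfa lay above the Veh median in all 8 Dox and all 8 Dox + ABT libraries, while Adm split the Dox libraries into 4 high values and 4 values within the Veh range.

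The promoters of the 4 genes that passed in Dox against Veh are shown because these genes rose in the same comparison and HIF-1 is known to bind the core letters ACGTG and GCGTG. The sequences are the 250 bases before the annotated start in RefSeq (build GRCr8, not the rn6 build of the counts), written 5′ to 3′ on the gene's own strand, with any match to either motif in capitals. They lie at chr9:22452604-22452853 (+ strand) for Vegfa, chr17:22666688-22666937 (− strand) for Edn1, chr1:174179950-174180199 (+ strand) for Adm and chr14:32571813-32572062 (+ strand) for Kdr.
Vegfa: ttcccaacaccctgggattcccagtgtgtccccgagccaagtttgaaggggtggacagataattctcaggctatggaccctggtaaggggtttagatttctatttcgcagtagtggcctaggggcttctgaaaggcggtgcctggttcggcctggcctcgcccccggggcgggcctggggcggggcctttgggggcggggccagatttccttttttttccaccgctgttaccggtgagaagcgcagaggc
Edn1: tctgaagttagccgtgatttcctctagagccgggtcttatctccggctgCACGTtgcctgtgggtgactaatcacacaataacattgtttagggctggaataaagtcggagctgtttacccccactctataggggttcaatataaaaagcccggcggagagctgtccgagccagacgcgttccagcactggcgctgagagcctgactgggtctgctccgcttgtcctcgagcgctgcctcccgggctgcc
Adm: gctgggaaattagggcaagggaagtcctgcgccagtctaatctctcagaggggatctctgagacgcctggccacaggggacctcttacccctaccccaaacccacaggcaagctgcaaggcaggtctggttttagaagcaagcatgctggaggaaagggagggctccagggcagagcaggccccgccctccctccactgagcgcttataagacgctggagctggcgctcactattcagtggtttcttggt
Kdr: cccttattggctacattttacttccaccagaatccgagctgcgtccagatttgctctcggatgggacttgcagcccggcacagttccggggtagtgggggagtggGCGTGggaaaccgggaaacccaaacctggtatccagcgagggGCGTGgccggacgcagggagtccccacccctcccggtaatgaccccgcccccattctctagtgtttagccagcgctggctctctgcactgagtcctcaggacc
In Edn1 the capitals read CACGT, which is ACGTG on the opposite strand, 201 bases before the start. Kdr held GCGTG at 145 and at 103 bases before its start. The Vegfa and Adm windows held neither motif, and neither did the window of another annotated Vegfa start. Bases outside these windows were not searched, so the windows cannot show that Vegfa or Adm lacks the motif. Of the 9 members listed in the promoter table, 6 held a match to either motif on either strand (an ACGTG overlapping its own reverse complement was counted on both strands), against 36.7% of 33469 promoter windows of this length (16.6% for ACGTG and 25.9% for GCGTG). A match is a description of letters, and binding was not measured.

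Among the ligands, Vegfa ranged from 362 to 1449 normalised counts in Veh, with a median of 769 (884 ± 356, mean ± SD, n = 10). In Dox it ranged from 936 to 2306, with a median of 1474 (1409 ± 463, n = 8), and in Dox + ABT from 918 to 1644, with a median of 1349 (1335 ± 212, n = 8). The groups overlapped, but 4 of 8 Dox libraries lay above every Veh library and none of the Dox or Dox + ABT libraries fell below the Veh median. The log2 difference of Dox from Veh was 0.72 (SE 0.21, p = 0.00192, adjusted p = 0.212, limma) and that of Dox + ABT from Veh was 0.69 (SE 0.21, p = 0.00275, adjusted p = 0.109). Dox + ABT differed from Dox by -0.03, with a 95% interval from -0.48 to 0.42. Both p-values against Veh stayed under 0.01 when any 1 of the 26 libraries was left out.

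The Vegfa value is a sum of 5 transcript rows, and 3 of them carried most of it. The largest held 57.8% of the signal and averaged 538 (Veh), 754 (Dox) and 799 (Dox + ABT). Row 2 by size held 21.8% and averaged 184, 347 and 260, and it alone among the 3 largest passed p < 0.01 in Dox against Veh (log2 difference 0.97, SE 0.23, p = 0.000276, limma on rows). Row 3 held 15.8%, averaged 118, 236 and 222, and passed in Dox + ABT against Veh (1.03, SE 0.37, p = 0.00937). The smallest row, with 0.426% of the signal, also passed in Dox against Veh (1.40, p = 0.00994). How reads that fit several transcripts were assigned to rows is not given in the sources used here, so the split within Vegfa is less certain than its sum.

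Edn1 was a low-count gene, with 1 to 12 estimated reads in each Veh library, 11 to 38 in each Dox library and 8 to 25 in each Dox + ABT library. In normalised counts it ranged from 0.824 to 16.4 in Veh (median 7.34), from 9.77 to 44.6 in Dox (median 13.9) and from 9.43 to 21.6 in Dox + ABT (median 15.2). All 16 Dox-treated libraries were above the Veh median, and the groups overlapped through the upper Veh libraries. The log2 difference from Veh was 1.11 in Dox (SE 0.34, p = 0.00288, adjusted p = 0.247, limma) and 0.99 in Dox + ABT (SE 0.34, p = 0.00677, adjusted p = 0.118). The highest value, 44.6, was that of Dox rat 2, and without this library the difference in Dox was 0.91 (p = 0.0107, limma). The p-value of Dox + ABT against Veh rose above 0.01 on leaving out any of 8 libraries, 4 of Veh (rats 1, 4, 5 and 9) and 4 of Dox + ABT (rats 2, 3, 5 and 11).

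Adm also rested on few reads, with 3 to 26 estimated reads in each Veh library, 11 to 68 in Dox and 2 to 16 in Dox + ABT. It ranged from 4.47 to 22.5 normalised counts in Veh (median 11.9), from 10.8 to 53.1 in Dox (median 30.2) and from 2.41 to 17.7 in Dox + ABT (median 9.97). The Dox values formed a high set, 53.1, 42.2, 50.7 and 47.5 in rats 1, 2, 5 and 7, and a set inside the Veh range, 10.8, 11.3, 16.1 and 18.2 in rats 9, 10, 13 and 14. Dox exceeded Veh by 1.11 on the log2 scale (SE 0.36, p = 0.00477, adjusted p = 0.290, limma), a call that was lost (lowest difference 0.97, highest p = 0.0146) without Veh rat 10 or without any of Dox rats 1, 2, 5 or 7. Dox + ABT was lower than Dox by a log2 difference of -1.40 (95% interval -2.18 to -0.62, p = 0.000992, adjusted p = 0.161), with all 8 Dox + ABT libraries below the Dox median, and this p-value stayed under 0.01 whichever library was left out (highest p = 0.00326). Dox + ABT and Veh differed by -0.29 (p = 0.426). With limma's library weights the Adm differences were 0.65 for Dox against Veh (p = 0.0686) and -0.91 for Dox + ABT against Dox (p = 0.0130), neither under 0.01, in a fit in which 20.2% and 10.3% of all genes passed.

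Of the receptors, Kdr ranged from 42.9 to 129 normalised counts in Veh (median 71.8), from 88.0 to 165 in Dox (median 128) and from 63.7 to 158 in Dox + ABT (median 96.4). All 8 Dox libraries exceeded the Veh median and 4 exceeded every Veh library. The log2 difference of Dox from Veh was 0.81 (SE 0.21, p = 0.000538, adjusted p = 0.140, limma), the smallest p-value of the 10 genes, and it stayed under 0.01 on leaving out each library in turn. Dox + ABT differed from Veh by 0.48 (SE 0.21, p = 0.0287) and from Dox by -0.33 (p = 0.141). Without Veh rat 12, the library with the highest Kdr of its group, the difference of Dox + ABT from Veh was 0.57 (p = 0.00742).

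Flt1 ranged from 242 to 1281 in Veh (median 370), from 452 to 889 in Dox (median 670) and from 260 to 765 in Dox + ABT (median 469). All 8 Dox libraries lay above the Veh median but none lay above the highest Veh library, rat 12. The log2 difference of Dox from Veh was 0.52 (SE 0.26, p = 0.0606, limma), and without Veh rat 12 it was 0.68 (p = 0.00665). With limma's library weights it was 0.81 (p = 0.00339), in a fit in which 20.2% of all genes passed. Dox + ABT differed from Veh by 0.05 (p = 0.845) and from Dox by -0.46 (p = 0.106).

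Ednrb had lower values in Dox, from 129 to 212 normalised counts (median 164), against 144 to 341 in Veh (median 242) and 126 to 325 in Dox + ABT (median 196). Every Dox library lay below the Veh median and 7 of 10 Veh libraries lay above every Dox library. The log2 difference of Dox from Veh was -0.42 (SE 0.16, p = 0.0158, limma), short of the threshold, which it passed without Veh rat 3 or without Veh rat 4. It was -0.14 (p = 0.385) with library weights and -0.31 (p = 0.0902) without Dox rats 1 and 2. Ednra, at medians of 21.3 (Veh), 23.8 (Dox) and 29.1 (Dox + ABT), gave log2 differences between -0.10 and 0.21, and its lowest value, 6.07, was again that of Dox rat 2.

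Angpt1 had medians of 36.2 (Veh), 34.7 (Dox) and 35.9 (Dox + ABT), with log2 differences of -0.17, -0.11 and 0.05 in the 3 comparisons and p-values of 0.336 or more. For Dox against Veh the 95% interval ran from -0.52 to 0.18. Nos3 had medians of 145 (Veh), 122 (Dox) and 109 (Dox + ABT), but the Dox group reached 447 in rat 5. Its log2 difference was 0.23 for Dox against Veh (p = 0.407, limma), -0.45 for Dox + ABT against Veh (p = 0.114) and -0.68 for Dox + ABT against Dox (SE 0.29, p = 0.0261). Hif1a had medians of 701 (Veh), 644 (Dox) and 745 (Dox + ABT) and log2 differences of -0.10 (p = 0.278), 0.07 (p = 0.452) and 0.16 (p = 0.0872).

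Libraries differed in the share of their signal taken by 79 ribosomal protein genes, which was 1.47% ± 0.463 (mean ± SD) in Veh, against 1.26% ± 0.357 for the Dox rats and 1.10% ± 0.126 for the Dox + ABT rats. The share was lower in Dox + ABT than in Veh by 0.370 percentage points (exact permutation test, two-sided, p = 0.0442), a p that rose above 0.05 in 12 of 18 single omissions (highest 0.0784) and to 0.0945 on a log2 scale, while Dox and Veh (p = 0.299) and Dox + ABT and Dox (p = 0.267) gave larger p-values. The mitochondrial share was 11.9% ± 3.68 in the Veh libraries, 8.47% ± 2.01 in the Dox libraries and 9.06% ± 3.13 in the Dox + ABT libraries, and its part in the results was not tested. With the share as a covariate, 5 of the 10 genes passed in Dox against Veh (background 2.66%): Vegfa (log2 difference 0.59, p = 0.00517), Edn1 (0.99, p = 0.00751), Adm (1.29, p = 0.00108), Kdr (0.78, p = 0.00101) and, as lower, Ednrb (-0.46, p = 0.00956). No gene of the 10 passed in Dox + ABT against Veh (background 1.59%), where Vegfa gave 0.46 (p = 0.0331) and Edn1 0.79 (p = 0.0400). At an unadjusted p under 0.05 these were the 2 members that remained in that comparison, beside 1235 of all 15595 genes. Adm stayed lower in Dox + ABT than in Dox (-1.27, p = 0.00174), the 1 gene of the 10 to pass in that fit (background 4.72%). With the split of the libraries described next as covariate, the counts were 5, 0 and 1 of 10 (backgrounds 2.64%, 1.17% and 4.48%).

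**Figure D2:**
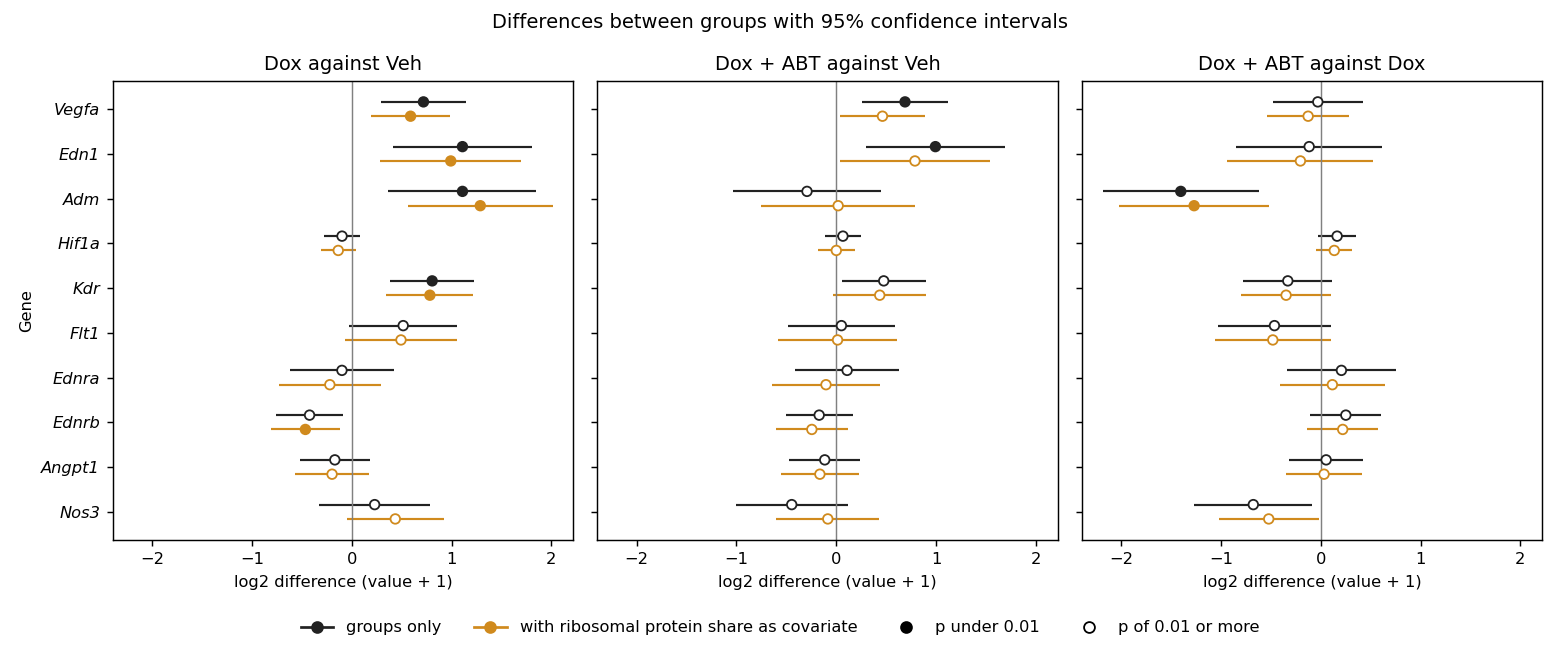
Log2 differences with 95% confidence intervals (x axis) of the 10 genes (y axis) in the 3 comparisons, from limma with groups only (black) and with the ribosomal protein share as covariate (orange). Filled points have p < 0.01; Adm stands at -1.40 in Dox + ABT against Dox and at -1.27 with the covariate.

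A split of the share at 1.38% put 9 libraries in a high set (6 Veh, 3 Dox and 0 Dox + ABT) and 17 in a low set (4 Veh, 5 Dox and 8 Dox + ABT). The Vegfa difference of Dox from Veh was larger in the high than in the low set. Among the high libraries, it was 362 to 795 in the 6 Veh rats and 950, 1641 and 2306 in the 3 Dox rats, with no overlap. Among the low libraries, it was 1002 to 1449 in the 4 Veh rats and 936 to 1512 in the 5 Dox rats, which overlapped over nearly their whole range. The log2 difference of Dox from Veh was 1.31 in the high and 0.00 in the low libraries, and the test of the difference between them gave 1.30 (SE 0.32, p = 0.000342, adjusted p = 0.0858, limma). Of the 10 genes only Vegfa passed in this test, beside 7.30% of all genes, and with the share itself in place of the 2 sets the interaction was 0.93 per percentage point (p = 0.0672).

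Within the low libraries, Dox against Veh gave 1.26 for Edn1, 1.03 for Adm, 0.69 for Kdr and -0.66 for Ednrb, of which only Ednrb passed p < 0.01 (p = 0.00768, limma, background 4.01%). None of the 10 passed there in Dox + ABT against Veh (background 0.526%) or against Dox (8.48%). Within the high libraries it gave 1.42 for Adm, 1.02 for Kdr, 0.76 for Edn1 and 0.73 for Nos3, and Vegfa, Adm and Kdr passed, 3 of 10 (background 3.57%). Nos3 followed the split itself, being higher in the high libraries by 1.10 on the log2 scale (p = 2.73e-06, limma with group in the fit) in a test that 33.3% of all genes passed at p < 0.01 in either direction. Its values above 200 were those of Dox rats 5, 7 and 14 and Veh rat 12, all in the high set. The summed level of the 8 endothelial markers found in the table was 3024 ± 1003 in the high and 2118 ± 449 in the low libraries, and its part in the Nos3 values was not tested.

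**Figure D3:**
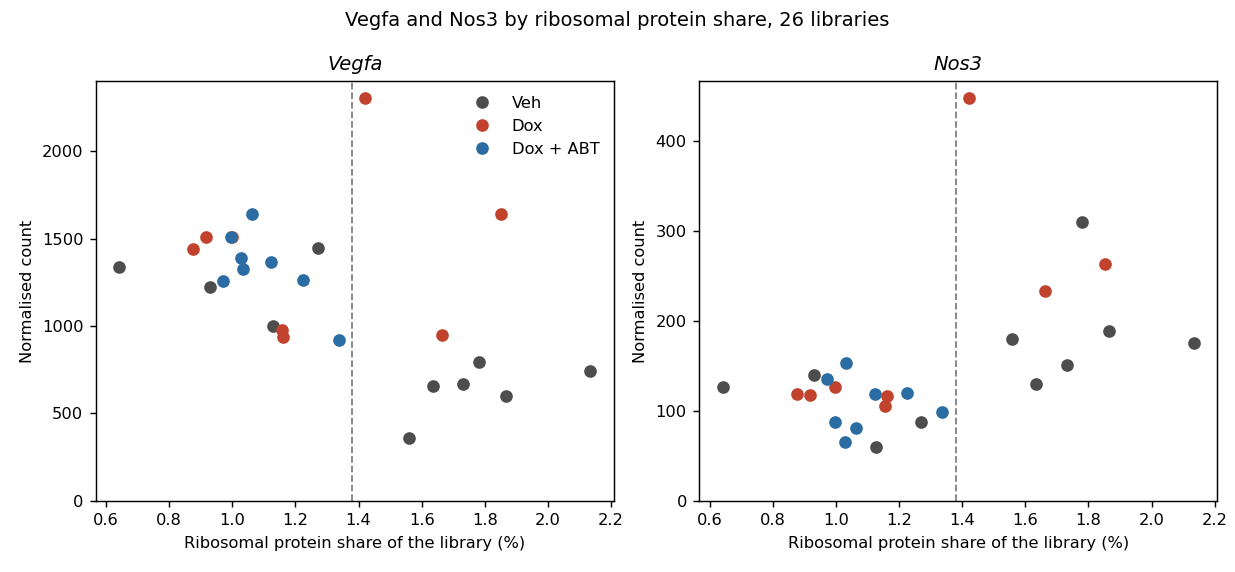
Normalised counts (y axes) of Vegfa and Nos3 against the ribosomal protein share of each library in percent (x axis), coloured by group, with the split at 1.38% as a dashed line. To the right of the line Vegfa was 362 to 795 in Veh and 950 to 2306 in Dox, and all Nos3 values above 200 lie there.

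The rats of each group carry numbers from 1 to 7 and from 9 to 14, and the values of several members differed between these ranges. The ranges were compared after the values had been seen, the labels do not say what the numbers stand for, and whether the Dox difference itself differs between ranges was not tested. Kdr in Dox was 139, 123, 165 and 162 in rats 1, 2, 5 and 7 and 88.0, 88.5, 133 and 114 in rats 9, 10, 13 and 14. Flt1 in Veh was 242 to 425 in the 6 rats numbered up to 6 and 600 to 1281 in the 4 rats numbered from 9, with no overlap. Over all groups Flt1 was higher in the later range by 0.84 (p = 3.19e-05, limma with group in the fit) and Adm was lower by -0.90 (p = 0.00235), where 8.93% of all genes passed p < 0.01.

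Within rats 1 to 7, Dox against Veh gave log2 differences of 1.96 for Adm, 1.63 for Edn1, 1.39 for Kdr, 1.02 for Flt1 and 0.75 for Vegfa. Within rats 9 to 14 the same differences were 0.27, 0.41, 0.06, -0.27 and 0.68, from 4 Veh and 4 Dox rats. The Vegfa values of the 2 ranges lay close together, those of Adm, Edn1 and Kdr were larger in the first range, and that of Flt1 changed sign. Ednrb was -0.42 in the first and -0.49 in the second range. With the range as a covariate, Adm in Dox + ABT against Dox was -1.63 (p = 4.01e-05, adjusted p = 0.0460), and 4, 2 and 1 members passed in the 3 comparisons (backgrounds 3.36%, 8.92% and 5.36%). Within rats 1 to 7 the members that passed numbered 5, 3 and 2 (backgrounds 5.53%, 8.21% and 5.30%), and within rats 9 to 14 they numbered 1, 0 and 0 (backgrounds 1.03%, 0.455% and 0.263%). Only 2 Dox + ABT rats were numbered from 9 to 14, so comparisons of that group there rest on 2 animals.

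**Figure D4:**
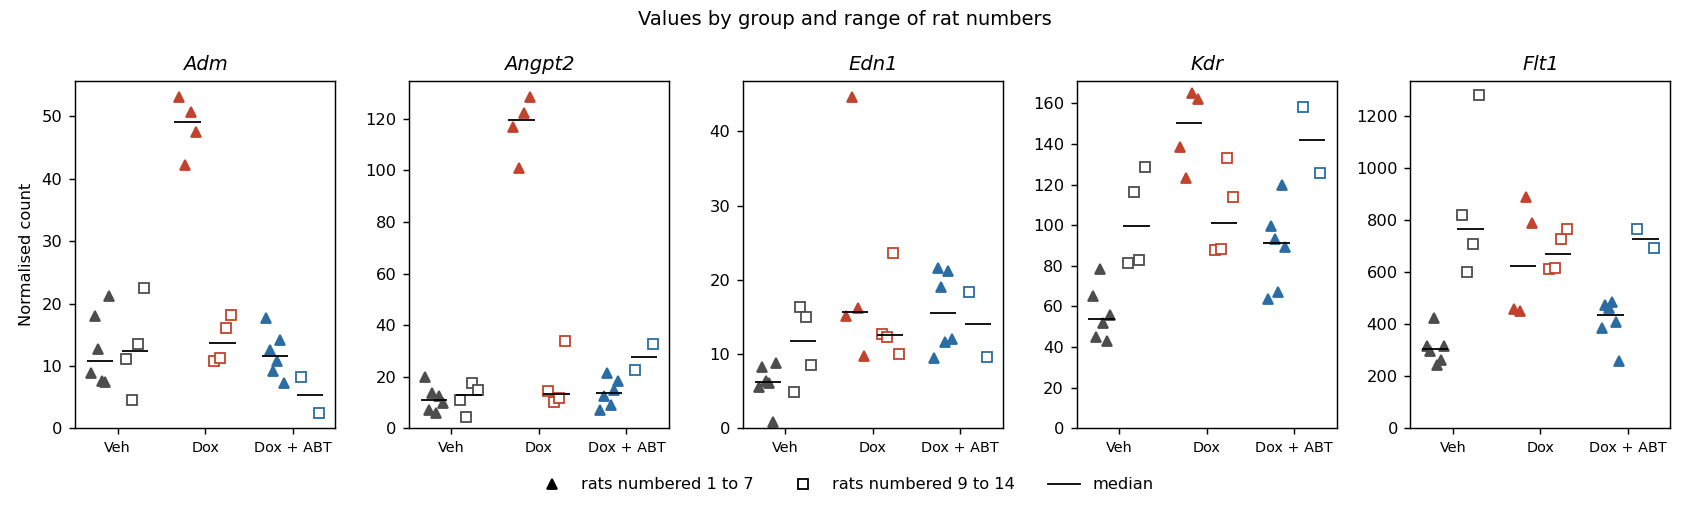
Normalised counts (y axes, from 0) of Adm, Angpt2, Edn1, Kdr and Flt1 by group (x axis), with rats numbered 1 to 7 as triangles and rats numbered 9 to 14 as open squares; lines are medians. Adm was 42.2 or more in the 4 Dox rats of the first range and 18.2 or less in the 4 of the second, and Angpt2 was 101 or more and 33.7 or less.

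Red-cell transcripts moved with the same 4 Dox rats. The summed level of the 6 red-cell markers in the table, haemoglobin genes among them, was 26887, 30189, 96465 and 135352 in Dox rats 1, 2, 5 and 7, against 3718 to 14626 in the other 4 Dox rats, 2396 to 26855 in Veh and 3276 to 12030 in Dox + ABT. None of the 6 markers passed in Dox against Veh, although all 6 had higher means, and their part in the Adm, Edn1 and Kdr values was not tested. The endothelial marker sum was 1413 to 4336 in Veh, 1886 to 4109 in Dox and 1234 to 2876 in Dox + ABT. Endothelial markers moved in both directions in Dox against Veh, with Vwf (von Willebrand factor) higher by 0.89 (p = 0.00185, limma) and Emcn (endomucin) lower by a log2 difference of -0.85 (p = 0.00331). The Vwf difference was 1.51 within rats 1 to 7 (means of 1130 in Dox and 375 in Veh) and 0.057 within rats 9 to 14 (806 and 815). Vwf was at -1.09 (p = 0.000422) and Emcn at 1.06 (p = 0.000650) in Dox + ABT against Dox. Emcn was 8.54 and 14.1 in Dox rats 1 and 2, below every other library, and without them its difference of Dox from Veh was -0.37 (p = 0.0432). Without these 2 libraries, 2 of the 10 genes passed in Dox against Veh (background 1.16%), Vegfa (0.88, p = 0.000523) and Kdr (0.78, p = 0.00246), while Edn1 was 0.88 (p = 0.0187) and Adm 0.83 (p = 0.0409). Without them 2 passed in Dox + ABT against Dox (background 2.97%), Adm (-1.12, p = 0.00987) and Nos3 (-0.87, p = 0.00868).

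Around the 10 genes, 9 lists of the same pathways held 114 other genes, of which 97 were tested. In Dox against Veh 8 of the 97 passed, 6 higher and 2 lower (background 2.87%), in Dox + ABT against Veh 7 passed, 2 higher and 5 lower (7.84%), and in Dox + ABT against Dox 10 passed, 4 higher and 6 lower (4.03%). The median log2 difference of the 97 was 0.01, -0.03 and -0.05, beside 0.00 over all genes in each comparison. For the 10 genes the medians were 0.37, 0.06 and -0.07. With the ribosomal protein share as covariate, 6, 2 and 10 of the 97 passed. In Dox against Veh the count was 4 without Dox rat 1 and 5 without Dox rat 2 or Veh rat 2. That of Dox + ABT against Dox was 3 without Dox rat 1 or rat 2, 5 without Dox rat 10 and 6 without any of Dox + ABT rats 3, 4, 5 and 6.

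The angiopoietin list held the largest difference of the 97 in Dox against Veh. Angpt2, the ligand that can oppose Angpt1 at Tie2, was 4.47 to 19.8 normalised counts in Veh, 117, 101, 122 and 128 in Dox rats 1, 2, 5 and 7, 10.3 to 33.7 in the other Dox rats and 7.07 to 32.5 in Dox + ABT. Its Dox values fell into the same high and low sets as those of Adm. The log2 difference was 1.92 for Dox against Veh (SE 0.45, p = 0.000221, adjusted p = 0.115, limma) and -1.41 for Dox + ABT against Dox (SE 0.48, p = 0.00637). The first of these stayed under p = 0.01 on leaving out each library. The second was lost with the share as covariate (-1.30, p = 0.0108), with library weights (-0.46, p = 0.282), without Dox rats 1 and 2 (-0.98, p = 0.0564) and without any 1 of Dox rats 1, 2, 5 and 7 or Dox + ABT rats 1, 2 and 4 (highest p = 0.0190). The receptors Tek (Tie2) and Tie1 gave -0.40 (p = 0.144) and -0.40 (p = 0.0752) in Dox against Veh, and Tie1 passed as lower there with the rat number range as covariate. Svep1 passed in Dox + ABT against Veh (0.70, p = 0.00605), and with the share as covariate its difference was 0.30 (p = 0.116). The Svep1 call was also lost without any 1 of 10 libraries (highest p = 0.0144).

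Among VEGF ligands and co-receptors, 1 of 6 genes passed in Dox against Veh and in Dox + ABT against Dox. This was Flt4, encoding VEGFR3, the receptor of VEGF-C, with means of 39.2 ± 20.7 (Veh), 61.6 ± 17.1 (Dox) and 30.7 ± 8.52 (Dox + ABT, all SD). It was higher in Dox than in Veh by 0.75 (p = 0.00516, limma) and lower in Dox + ABT than in Dox by a log2 difference of -0.98 (p = 0.000802). The call against Veh was lost without any 1 of Dox rats 5, 7 and 14 or Veh rats 2, 5 and 6 (highest p = 0.0133) and without Dox rats 1 and 2 (0.73, p = 0.0144). Flt4 averaged 69.8 in Dox and 26.4 in Veh among rats 1 to 7, but 53.5 in Dox and 58.5 in Veh among rats 9 to 14, where the direction turned. Nrp1, the VEGF co-receptor neuropilin-1, gave 0.14 and 0.18 against Veh (p = 0.256 and 0.134). In the sprouting list, 3 of 17 genes passed in Dox against Veh, all higher: Notch4 (0.51, p = 0.00126), an endothelial Notch receptor, Dll4 (0.74, p = 0.00760), the Notch ligand of tip cells, and Adamts1 (0.995, p = 0.00423), a secreted protease. Adamts1 reached 199 and 157 in Dox rats 1 and 2, against at most 60.3 in Veh, and without these rats its difference was 0.49 (p = 0.0711) and that of Notch4 0.41 (p = 0.0125). Dll4 averaged 49.7 in Dox and 18.8 in Veh among rats 1 to 7, but 42.2 in Dox and 45.8 in Veh among rats 9 to 14, where the direction turned. Timp3, an inhibitor of metalloproteinases, was at -0.42 (p = 0.00638) and Tgfbr1, a TGF-beta receptor, at 0.41 (p = 0.00721) in Dox + ABT against Dox. The Timp3 call was lost in 6 of 26 single omissions (highest p = 0.0192) and without Dox rats 1 and 2 (-0.34, p = 0.0358).

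None of 3 other endothelin genes and none of 7 other adrenomedullin and CGRP genes passed in any of the 3 comparisons in limma without a covariate. Ece1, which converts the endothelin precursor, averaged 940 ± 60.0 (Veh), 964 ± 135 (Dox) and 862 ± 50.8 (Dox + ABT, all SD), with a log2 difference of 0.03 for Dox against Veh (p = 0.710). Calcrl and Ramp2, which together form an adrenomedullin receptor, gave -0.36 (p = 0.0984) and 0.06 (p = 0.684) in Dox against Veh. Ackr3, a scavenger receptor for adrenomedullin, passed with the share as covariate, as lower in Dox + ABT than in either other group. Edn3, another endothelin, passed as higher in Dox + ABT than in Dox with the rat number range as covariate (0.74, p = 0.0275, without it).

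The HIF lists bear on whether other targets of HIF-1 moved with Vegfa, Edn1 and Adm. None of 25 HIF target genes passed in Dox against Veh, with a median log2 difference of 0.02. Slc2a1, the glucose transporter of the blood-brain barrier, came nearest (0.37, p = 0.0127, limma), and was lower in Dox + ABT than in Dox by a log2 difference of -0.47 (p = 0.00295), as was Ddit4, an inhibitor of mTOR signalling (-0.52, p = 0.00441). Without Dox rats 1 and 2 the Slc2a1 difference was -0.33 (p = 0.0302). Ldha, a lactate dehydrogenase gene, gave -0.08 (p = 0.452) and Bnip3, a mitophagy gene, 0.02 (p = 0.848) in Dox against Veh. For Dox + ABT against Veh, Pdk1, which inhibits pyruvate dehydrogenase, was at -0.33 (p = 0.00108) and Mxi1, a Myc antagonist, at -0.42 (p = 0.00429), and neither passed with the share as covariate (-0.20, p = 0.0163 and -0.16, p = 0.0799). Among the 9 HIF regulators, Hif3a rose in Dox (1.11, p = 0.00807) and was lower in Dox + ABT than in Dox (-1.16, p = 0.00893), with 123 and 161 normalised counts in Dox rats 1 and 2 against at most 41.5 in Veh. Without these 2 rats Hif3a gave 0.56 (p = 0.119) and -0.60 (p = 0.109), and with the share as covariate 0.84 (p = 0.0236) and -1.36 (p = 0.000798). Leaving out 1 library ended its call in 9 of 26 cases against Veh and in 15 of 26 between the Dox-treated groups (highest p = 0.0295 and 0.0293). In Dox + ABT against Veh, Arnt, the partner of HIF-1 alpha, was higher by 0.46 (p = 0.00339) and Egln1, the oxygen-sensing hydroxylase that marks HIF-1 alpha for degradation, was at -0.40 (p = 0.00344). Arnt and Egln1 did not pass with the share as covariate (p = 0.0551 and 0.0599).

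Beside Nos3, 1 of 10 other nitric oxide genes passed in each comparison. Ddah1, whose product degrades a natural inhibitor of nitric oxide synthases, was 314 to 406 normalised counts in Dox against 380 to 683 in Veh and 393 to 748 in Dox + ABT, with log2 differences of -0.46 from Veh (p = 0.000514, limma) and 0.35 for Dox + ABT against Dox (p = 0.00890). Ddah2, of the same function, was at -0.38 in Dox + ABT against Veh (p = 0.00714), a call lost with the share as covariate (-0.18, p = 0.116) and on leaving out any 1 of 11 libraries (highest p = 0.0200). The Ddah1 call against Veh held on every such omission. Its call between Dox + ABT and Dox was lost in 12 of 26 single omissions (lowest difference 0.25, highest p = 0.0288), without Dox rats 1 and 2 (0.32, p = 0.0278) and with the rat number range as covariate. Among 14 other vasoactive genes, Aplnr, the apelin receptor, was lower in Dox than in Veh (-1.41, p = 0.00566) and higher in Dox + ABT than in Dox (1.60, p = 0.00324), and it was at 0 in Dox rats 1 and 2. Without them the differences were -0.57 (p = 0.0923) and 0.76 (p = 0.0356), and library weights gave -0.98 (p = 0.0175) against Veh. Agt, the angiotensin precursor made by astrocytes, was lower in Dox + ABT than in Veh (-0.60, p = 0.000662, and -0.30, p = 0.00783, with the share as covariate). Bdkrb2, a bradykinin receptor, was higher in Dox + ABT than in Dox (0.98, p = 0.00257) at means of 15.7 ± 3.39 and 8.55 ± 4.61 (SD). Its Dox values averaged 3.28 in the 3 high share libraries, a set without Dox + ABT rats, and 11.7 in the 5 low share libraries, and with library weights the call was lost (0.67, p = 0.0124).

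**Figure D5:**
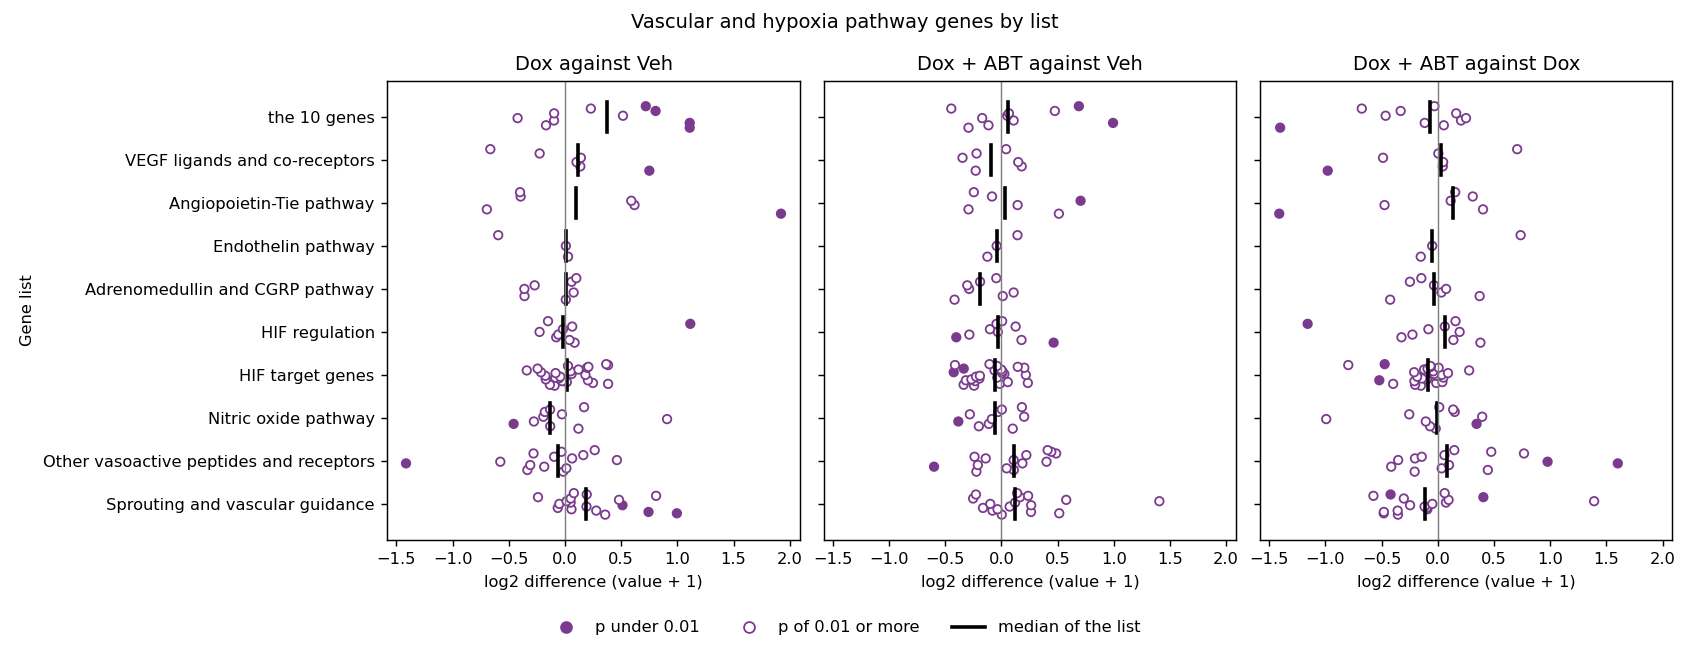
Log2 differences (x axis) of each tested gene by list (y axis) in the 3 comparisons, with the 10 genes on the top line; filled points have p < 0.01 and bars mark list medians. The median of the 10 genes is 0.37 in Dox against Veh, and Angpt2 is the farthest point to the right there, at 1.92.

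The genes whose values went most closely with Vegfa over the 26 libraries, after group and ribosomal protein share were taken out, were Traf3ip1 (Pearson r = 0.90, Spearman rho = 0.83), Inpp5f (r = 0.87, rho = 0.79) and Tra2a (r = 0.85, rho = 0.82), out of 12129 genes with a mean of at least 50. Without Veh rat 9 and Dox rat 5, the libraries farthest from the middle for Vegfa, r was 0.81, 0.77 and 0.74. For Kdr they were Abcb4 (r = 0.73, rho = 0.69), Flt1 (r = 0.73, rho = 0.71) and Adgrf5 (r = 0.72, rho = 0.72), and without Veh rats 12 and 5 r was 0.62, 0.61 and 0.62. These correlations share libraries and their depth and are descriptions only. Flt1, the other VEGF-A receptor of the 10 genes, was thus among the 3 nearest to Kdr, while no member was among the 3 nearest to Vegfa.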

How the data were processed

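Poly(A) RNA of the DG was sequenced by the authors on the Ion Proton, and reads were aligned to rn6 with STAR 2.5.3a in Partek Flow. The deposited signal values are gene counts that the authors normalised by the median ratio method, in 24012 rows, and rows were summed here by gene ID to 17910 genes. Because 75.7% to 78.8% of low values of genes with 1 row, and 26.9% to 34.8% of those with several, came out as whole reads within 0.02, no count test was run, and depth is an estimate from these steps. Groups were taken from the labels. Genes with a mean of at least 5 were tested with limma 3.58.1 (R 4.3.3, trended variance) on log2(value + 1), with all 26 libraries in 1 fit, and genes were called at p < 0.01, with Benjamini-Hochberg adjustment over all 15595 genes beside it. The fit was also run on simulated counts in which libraries differed only by group and by random draws. That run cannot speak to library differences such as the ribosomal protein share. Figures were drawn with matplotlib 3.10.9. Rats are separate animals, and no pair of libraries held identical values (correlations 0.941 to 0.987).

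The members and lists were chosen with earlier results of these data known. Named were all members, up to 3 genes per pathway list with the smallest p among those called, up to 2 called genes and the summed level per marker list, and the 3 genes most alike to Vegfa and to Kdr. Dll4, Tgfbr1, Ddit4, Ackr3, Aldh1l1, Ece1, Calcrl, Ramp2, Tek, Tie1, Nrp1, Edn3, Ldha and Bnip3, and any further called gene outside this rule, were named after their values were seen. The alternatives were other pseudocounts and filters, TMM and quantile scaling, library weights, the ribosomal protein share or the set of libraries, a replicate block, and leaving out each library. The rat number ranges and the fit without Dox rats 1 and 2 were added after seeing the data. Differences between genes in level are not given, since no transcript lengths were used here. One marker gene is not reported here.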

Additional observations from a re-analysis of the deposited data

Results flagged for a closer look

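Of 33 groups of libraries checked, the 10 genes and Angpt2 in each of the 3 groups, 4 held a library far from the others. The rule for this has a nominal rate of about 1 in 20, which was not measured on values such as these. Edn1 was 44.6 normalised counts in Dox rat 2, against at most 23.6 in the other Dox rats. Nos3 was 447 in Dox rat 5, against at most 263 in the other Dox rats. In Veh, Nos3 was 310 in rat 12, against at most 189 in the other Veh rats. Angpt1 was 50.6 in Dox + ABT rat 4, against at most 38.1 in the other Dox + ABT rats. The Dox effect on Vegfa differed between libraries of high and low ribosomal protein share by 1.30 on the log2 scale (SE 0.32, 95% interval 0.65 to 1.96, limma interaction p = 0.000342, adjusted p = 0.0858), with 6 Veh and 3 Dox libraries in the high and 4 Veh and 5 Dox libraries in the low set. In this test 7.30% of all genes passed p < 0.01. With the share itself in place of the 2 sets, the limma interaction was 0.93 per percentage point (p = 0.0672) and was not called.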

How the results depend on the processing

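Vegfa, Kdr and Edn1 in Dox against Veh and Adm in Dox + ABT against Dox were called alike with TMM scaling, pseudocounts of 0.5 and 5 and no filter. In the order Dox against Veh, Dox + ABT against Veh and Dox + ABT against Dox, the members called were 2, 1 and 0 with a mean of at least 20 (2.84%, 8.51% and 4.25% of all genes; Edn1 and Adm fall below this filter), 1, 0 and 0 in libraries of low share, and 1, 0 and 0 in rats 9 to 14. They were, in Dox + ABT against Veh, 0 with the share or the set of libraries as covariate, 1 with quantile scaling (7.84% of all genes called), 1 with a replicate block (7.57%) and 4 with library weights (5297 of 15595 genes). They were, in Dox + ABT against Dox, 0 with library weights, 2 in rats 1 to 7 and 2 without Dox rats 1 and 2, and in Dox against Veh 2 without these rats. The interaction with the share called 0. Of the 97 other genes, in Dox against Veh 5 were called in high share libraries, 5 with only the groups compared (2.02% of all genes), 26 with library weights (20.2%), 13 in rats 1 to 7 and 3 without Dox rats 1 and 2. Those called in Dox + ABT against Veh were 2 with the share and 1 with the set as covariate, 0 in low share libraries, 25 with library weights (5297 of 15595 genes), 13 in rats 1 to 7 and 1 in rats 9 to 14, and in Dox + ABT against Dox 0 in rats 9 to 14 and 3 without Dox rats 1 and 2. The share itself, on a log2 scale, differed between Dox + ABT and Veh by -0.348 (exact permutation p = 0.0945). The causes of these changes were not tested, and in several of these fits fewer genes or libraries entered.

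Differences of uncalled genes changed sign as follows. With the share as covariate, in Dox + ABT against Veh, Adm was 0.019 and Ednra -0.10. With the set as covariate, Hif1a was -0.020, Ednra -0.099 and Nos3 0.21. In low share libraries Hif1a was -0.097, Ednra -0.30 and Nos3 0.086. Vegfa in Dox + ABT against Dox was 0.082 in low share libraries, 0.022 with quantile scaling and 0.0075 with library weights. In Dox against Veh, high share libraries gave Hif1a 0.025, Ednra 0.23 and Angpt1 0.015, and library weights gave Hif1a 0.0053, Ednra 0.16 and Nos3 -0.11. In rats 1 to 7, Angpt1 was 0.041 in Dox and 0.16 in Dox + ABT against Veh. In rats 9 to 14, Dox against Veh gave Flt1 -0.27, Ednra 0.091, Nos3 -0.32, Adamts1 -0.16 and Flt4 -0.14, the last 2 called over all rats, as was Dll4, whose means also turned there. Dox + ABT had only 2 rats there. Against Veh it gave Hif1a -0.058 and Flt1 -0.17. Against Dox it gave Kdr 0.43, Flt1 0.10, Angpt1 -0.028, Nos3 0.019 and Angpt2 0.74 (called as lower over all rats). Without Dox rats 1 and 2, Ednra was 0.073 against Veh and Edn1 0.11 in Dox + ABT against Dox.

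Leaving out each library gave 2 to 5 (2 without Dox rat 2), 1 to 3 and 1 to 1 members called, 4 to 12, 5 to 10 and 3 to 12 of the other 97, 1 to 1 in the interaction, and shares lower in Dox + ABT than in Veh by -0.462 to -0.296 percentage points (12 of 18 above p = 0.05), -0.304 to -0.138 in Dox against Veh and -0.213 to -0.0734 in Dox + ABT against Dox. Signs changed for Angpt1 (-0.021 to 0.12), Edn1 (-0.21 to 0.088), Ednra (-0.026 to 0.35) and Vegfa (-0.10 to 0.081) in Dox + ABT against Dox, Ednra in Dox against Veh (-0.18 to 0.13) and Flt1 in Dox + ABT against Veh (-0.049 to 0.22). Rat numbers did not pair the libraries: of 16 pairs with 1 number, 6 correlated over 0.1 (range -0.222 to 0.442), and 1 of 23 libraries correlated best with its own number. Depth limits Edn1 and Adm, with 1 to 12 and 3 to 26 estimated reads in Veh.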
